A study of Camelus dromedarius with 4 samples.

Results

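The vascular endothelial growth factor (VEGF) family was examined in the supraoptic nucleus of the dromedary camel, the hypothalamic nucleus whose magnocellular neurones make vasopressin and oxytocin. The 9 genes were the receptors KDR, FLT1 and FLT4, the ligands VEGFA, VEGFB, VEGFC and PGF, and the neuropilins NRP1 and NRP2, out of 16049 gene symbols with a mean in both seasons. They were found by symbol in the table of season means and were chosen by season values of these same libraries, with the difference in KDR already known. Their season values are therefore given as a description, without a test.

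VEGF ligands are secreted dimers that bind receptor tyrosine kinases on endothelial cells. VEGFA binds KDR (VEGFR2), the main signalling receptor for endothelial growth and permeability, and also FLT1 (VEGFR1), which binds VEGFA tightly, signals weakly and can be spliced to a soluble form that holds ligand back. PGF and VEGFB bind FLT1, VEGFC binds FLT4 (VEGFR3) and, after proteolytic processing, KDR, and the neuropilins are co-receptors that are shared with the class 3 semaphorins. In adult brain VEGFA comes largely from astrocytes, KDR and FLT1 mark endothelial cells, and the magnocellular nuclei are among the most densely vascularised regions of the brain.

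The tissue came from healthy, age-matched adult male camels of the Tergui breed. The labels name no treatment other than the season, winter or summer. The winter animals were slaughtered at El Oued and the summer animals at Ouargla, on 1 day each, so that season, place and day of slaughter cannot be told apart. RNA of the dissected nucleus was sequenced as stranded, rRNA-depleted total RNA, with 2 libraries per season and no statement that animals were pooled. The study counts its RNA-seq samples as camels, whereas the labels name no animal, so that p-values measure the spread between these libraries.

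Between 4379162 and 6902037 reads per library fell on gene models, 20.7% to 27.8% of the tallied alignments. The named genes were deposited as 1 mean per season, of read counts divided by size factors, which scale libraries to a common depth. All 16049 symbols had means that could be written as sums of whole reads of 2 libraries, and 9897 symbols (61.7%) had a single such solution in both seasons. These whole reads are given below as the reads of each library, and a normalized read is a read divided by its library's size factor. The libraries of a season were told apart only as the higher-factor and the lower-factor library, with size factors of 1.33 and 0.946 in winter and 0.922 and 0.877 in summer. In a principal component analysis the first component (66% of the variance) separated the summer libraries from each other, and the second (19.6%) separated winter from summer. Among symbols with a mean of 30 to 100 in a season, 10.9% were more than 4-fold apart in summer and 1.07% in winter. Reads fell on 52456 and 40178 gene models in the summer libraries, and on 50154 and 49320 in the winter libraries. The cause of this difference was not tested. The defining peptide genes of the nucleus were present. Oxytocin (OXT) had means of 621 in winter and 592 in summer. The symbol PUTATIVE_AVP, the vasopressin gene as the table lists it, had means of 2560 in winter and 11822 in summer.

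KDR was the member with the largest season ratio. In the winter nuclei 140 KDR reads came from the higher-factor library and 124 from the lower-factor library, against 302 and 210 in the summer nuclei. The normalized reads were 106 and 131 in winter against 327 and 239 in summer, so that both summer libraries lay well above both winter libraries. The season means were 118 in winter and 283 in summer, a 2.39-fold higher value in summer and a log2 ratio of winter over summer of -1.26. The 2 libraries of a season differed by 1.24-fold in winter and by 1.37-fold in summer, and the SD of log2 values within a season was 0.28. With 1 library left out at a time the log2 ratio lay between -1.47 and -1.02. Because this is bulk tissue, fewer cells that carry a transcript and less transcript per cell cannot be told apart, for KDR or for any gene below.

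FLT1, the other main VEGFA receptor, had nearly the same mean in both seasons, 225 in winter and 244 in summer, a log2 ratio of -0.12. Its summer reads were 232 and 208, or 252 and 237 normalized. Its winter mean could be split in 2 ways, as 108 and 349 reads or as 293 and 217 reads. In the first split the winter libraries would differ by 4.53-fold and lie on either side of the summer libraries, and in the second they would differ by 1.04-fold and both lie just below them. The mean itself does not depend on that choice.

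FLT4, the VEGFC receptor that in most adult tissues is found on lymphatic endothelium, was read at low depth. It had 10 and 15 reads in winter against 12 and 21 in summer, or 7.55 and 15.9 normalized against 13.0 and 23.9. The means were 11.7 and 18.5, a log2 ratio of -0.66, and the higher winter library lay above the lower summer library. Without the winter library of the lower factor its log2 ratio was -1.29, and without the summer library of the lower factor it was -0.15, so that single libraries set its size. All 3 receptors thus had a lower mean in winter, by very different amounts. Since KDR was chosen with its season contrast known and FLT4 overlapped between seasons, no shared direction is read from this.

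VEGFA, the central ligand of the family and a target of hypoxia-inducible factors, differed more within winter than between seasons. It had 82 and 28 reads in winter against 43 and 53 in summer, which is 61.9 and 29.6 normalized reads against 46.6 and 60.4. The winter libraries thus held both the highest and the lowest value of the 4. The means were 45.7 and 53.5, a log2 ratio of -0.23 with a within-season SD of 0.56 on the log2 scale. Without the lower-factor winter library the log2 ratio turned to 0.21, and without the higher-factor winter library it was -0.85.

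VEGFC, the ligand of FLT4 and of KDR, was the most even within a season of the members with a single solution. Its reads were 63 and 41 in winter against 61 and 58 in summer, which gave 47.5 and 43.4 normalized reads in winter and 66.1 in both summer libraries. Both summer libraries lay above both winter libraries. The means of 45.4 and 66.1 differed by 1.45-fold, a log2 ratio of -0.54, with a within-season SD of 0.07. That SD rests on 2 libraries per season with 41 to 63 reads each, too few to measure the spread between libraries.

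VEGFB, a ligand of FLT1, was 1 of the 2 members with a higher winter mean, 118 against 86.0, a log2 ratio of 0.46. Its summer reads were 63 and 91. Its winter mean allowed 19 and 210 reads or 204 and 78 reads, and in neither case did the seasons separate. PGF, placental growth factor and a further FLT1 ligand, was at the edge of detection, with 10 and 7 reads in winter against 10 and 5 in summer. Its means of 7.47 and 8.27 lay under the minimum of 10 that the study applied, and no difference was detectable at this depth. FIGF, the older symbol of VEGFD, was listed without a mean in either season.

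The neuropilins went in opposite directions by small amounts. NRP1, the co-receptor for VEGFA on endothelial cells and for SEMA3A on neurones, had means of 221 in winter and 252 in summer, a log2 ratio of -0.19, with summer reads of 275 and 180. Its winter mean allowed 87 and 356 reads or 272 and 224 reads, and the seasons overlapped in both. NRP2, the co-receptor for VEGFC on veins and lymphatic vessels, had means of 869 and 667, a log2 ratio of 0.38. Its winter mean had 4 solutions and its summer mean 2, and winter lay above summer in 1 of these 8 combinations.

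**Figure D1:**
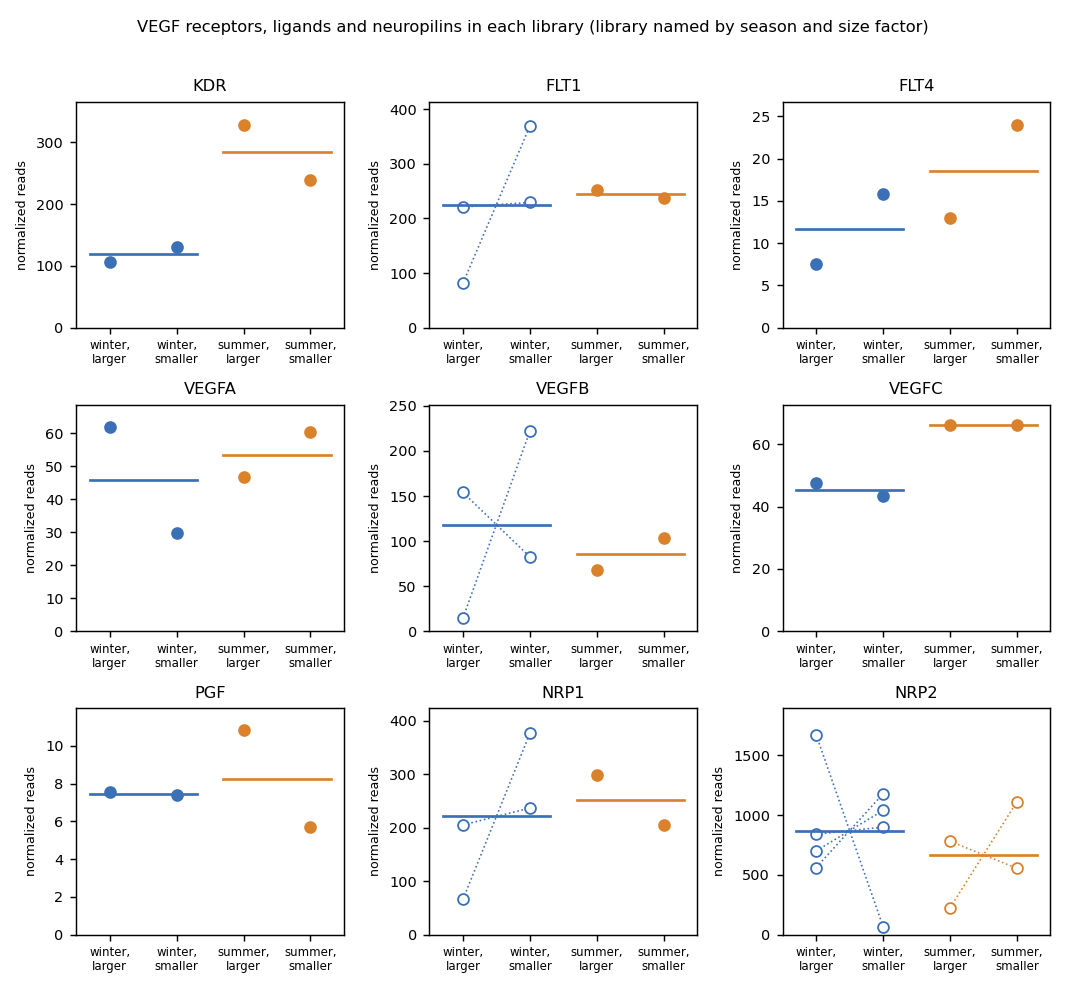
Normalized reads (y axis, from 0, a scale of its own in each panel) of the 9 genes in the 4 libraries, named on the x axis by season and by the larger or smaller size factor. Filled points are reads with a single solution, hollow points joined by dotted lines are the possible pairs where a mean had several, and horizontal bars are the season means; KDR and VEGFC are the panels with filled points only in which both summer libraries lie above both winter libraries.

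The 9 log2 ratios were set beside those of all symbols. Of the 9 members, 7 had a lower mean in winter, and the median log2 ratio was -0.19 (-0.17 without KDR, range -0.66 to 0.46 over the other 8). The median over 13808 symbols with a season mean of 10 or more was -0.04, and over the symbols among them with a single solution it was -0.12. Of these symbols 4.53% were more than 2-fold higher in summer and 2.72% more than 2-fold higher in winter, against 1 and 0 of the 8 members with such a mean. The 1 member was KDR, whose season contrast was among the values the members were chosen by, so that nothing is read from that count. Among 7656 symbols with a single solution and such a mean, both summer libraries exceeded both winter libraries in 17.2% and the reverse held in 13.3%. Means had several solutions from 100.24 in winter but only from 368.857 in summer. Symbols with a low winter mean thus entered this set more readily. In the subset of 4004 low symbols in which every mean solves, the shares were 15.8% and 14%. For the 4 members among the 7656 symbols the counts were 2, KDR and VEGFC, and 0. KDR was chosen with its season contrast known, so that nothing is read from this count either.

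**Figure D2:**
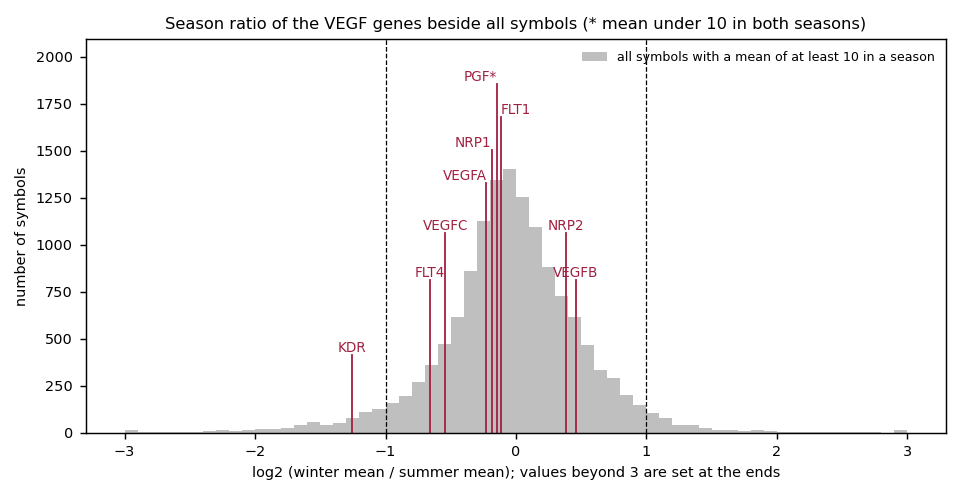
Histogram of the log2 ratio of the winter mean over the summer mean (x axis) for 13808 symbols, with the number of symbols on the y axis, red lines at the 9 VEGF genes and dashed lines at a 2-fold difference. KDR, at -1.26, is the only one of the 9 outside the dashed lines; the heights of the red lines only separate the names.

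KDR was next set beside the markers of endothelial cells, the cells that carry it. Its season contrast was known when it was chosen, so that its larger ratio is not read as a result. Of 24 endothelial markers with a mean of at least 10, 17 had a lower and 7 a higher mean in winter, none was more than 2-fold apart, and the median log2 ratio was -0.26. The adhesion molecule PECAM1 had 65 and 67 reads in winter against 84 and 71 in summer, with normalized values of 49.0 and 70.9 against 91.1 and 80.9 and a log2 ratio of -0.52. Both of its summer libraries were above both winter libraries, by less than for KDR. CDH5, the VE-cadherin of endothelial junctions and a partner of KDR there, went the other way, with 50 and 34 reads in winter against 14 and 21 in summer and a log2 ratio of 0.91. The blood-brain barrier claudin CLDN5 (log2 ratio -0.09), the angiopoietin receptor TEK (-0.30) and the fenestral diaphragm protein PLVAP (-0.26) were lower in winter, and TIE1, the second receptor of the TEK family, was higher (0.68). ESM1, a VEGF-induced proteoglycan, had the lowest log2 ratio of the list, -0.89, with 14 and 10 reads in winter against 15 and 20 in summer.

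KDR was also divided by single endothelial markers within each library, which cancels the size factor. Of the 14 markers with a single solution, 10 had both summer ratios above both winter ratios, and the summer ratio was higher than the winter ratio by 1.33-fold to 4.66-fold, with a median of 1.88-fold. The same held for KDR over 72.2% of 7356 other symbols with reads in all libraries, with a median of 2.28-fold, so that the count of markers stood near that share and the season values that chose KDR set both. These ratios share the same KDR reads, so that the 10 markers are not separate observations. KDR reads per PECAM1 read numbered 2.15 and 1.85 in winter against 3.60 and 2.96 in summer. Per CDH5 read the values were 2.80 and 3.65 in winter and 21.6 and 10 in summer. Per CLDN5 read they were 1.07 and 2.34 against 4.87 and 2.44, and the summer library of the lower factor lay close to the higher winter library. For ESAM, MMRN2, ESM1 and PLVAP the seasons overlapped.

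**Figure D3:**
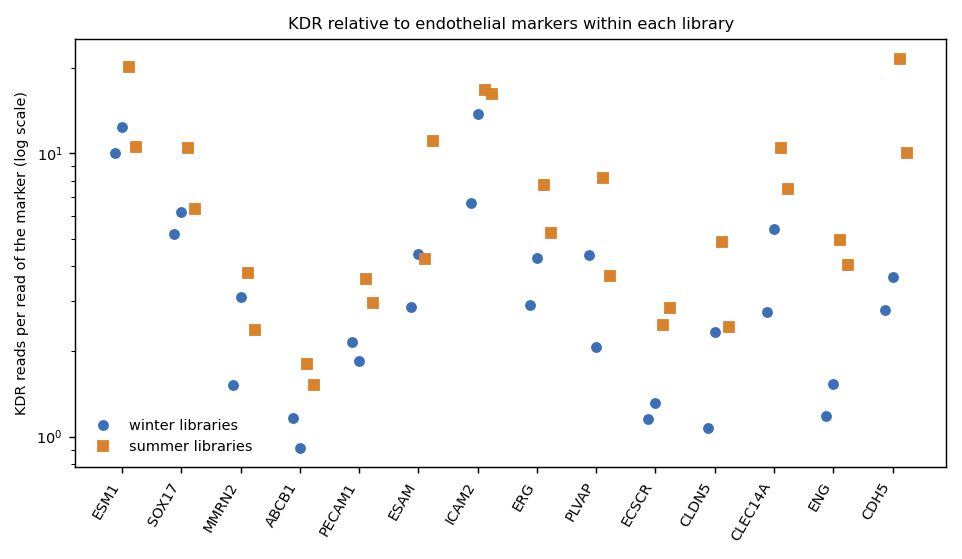
KDR reads per read of each of 14 endothelial markers (y axis, log scale) in the 2 winter libraries (circles) and the 2 summer libraries (squares), markers in order of the summer over winter ratio. Both squares lie above both circles for 10 of the 14 markers.

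The balance of KDR with the other members was followed in the same way. For FLT1 there were 1.30 and 1.01 KDR reads per FLT1 read in the summer libraries. In winter there were 0.478 and 0.571 under the even split of the FLT1 reads and 1.30 and 0.355 under the uneven split. KDR reads per VEGFC read were 2.22 and 3.02 in winter and 4.95 and 3.62 in summer, with no overlap. Per VEGFA read they were 1.71 and 4.43 in winter and 7.02 and 3.96 in summer, and the lower summer value lay below the higher winter value. Per FLT4 read they were 14 and 8.27 in winter and 25.2 and 10 in summer, with overlap. Per NRP1 read they were 1.10 and 1.17 in summer, against 0.515 and 0.554 in winter under the even split of the NRP1 reads and 1.61 and 0.348 under the uneven split.

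The 4 libraries also differed in astrocyte markers. The summed normalized reads of the 5 astrocyte markers with a single solution (AQP4, SLC1A3, ALDH1L1, SOX9 and GJB6) were 577 and 243 in winter against 184 and 503 in summer, for the higher-factor and lower-factor library of each season. All 5 were higher in the higher-factor winter library and in the lower-factor summer library, and of 7 supraoptic neurone markers 7 and 4 were. The other astrocyte markers could not be read by library and did not share a direction. Means were higher in summer for the filament protein GFAP, 14423 in winter and 25074 in summer (log2 ratio -0.80). So were those of S100B, 7490 and 11788 (-0.65), and of the connexin GJA1, 139 and 227 (-0.70). Means were higher in winter for ALDOC, 2203 and 2098 (0.07), and for SLC1A2, 689 and 592 (0.22). The means of all 10 astrocyte markers summed to 25350 in winter and 40120 in summer. GFAP and S100B made up most of these sums, and 6 of the 10 markers had a higher mean in winter. VEGFA was higher in the library with more astrocyte markers in both seasons, at 61.9 against 29.6 and at 60.4 against 46.6. KDR was lower in those libraries, at 106 against 131 and at 239 against 327. The order was not particular to astrocyte markers. Supraoptic neurone markers summed to 456.5 and 160.8 in winter against 298.2 and 460.5 in summer. Sums of the lymphatic, tanycyte, hypoxia, VEGF-induced, signalling and modulator lists had that order too. The endothelial, mural, semaphorin, PDGF, microglia and blood cell sums did not. Between the 2 astrocyte-high libraries KDR was 2.27-fold higher in summer, and between the 2 astrocyte-low libraries it was 2.50-fold higher. For VEGFC the same folds were 1.39 and 1.53. For VEGFA they were 0.976 and 1.58, for FLT4 3.17 and 0.820, and for PGF 0.755 and 1.47. Since both summer libraries lay above both winter libraries for KDR and VEGFC, any pairing had to keep their direction, and the folds of PGF rest on 5 to 10 reads per library. The part of astrocyte content in the VEGFA values was not tested.

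**Figure D4:**
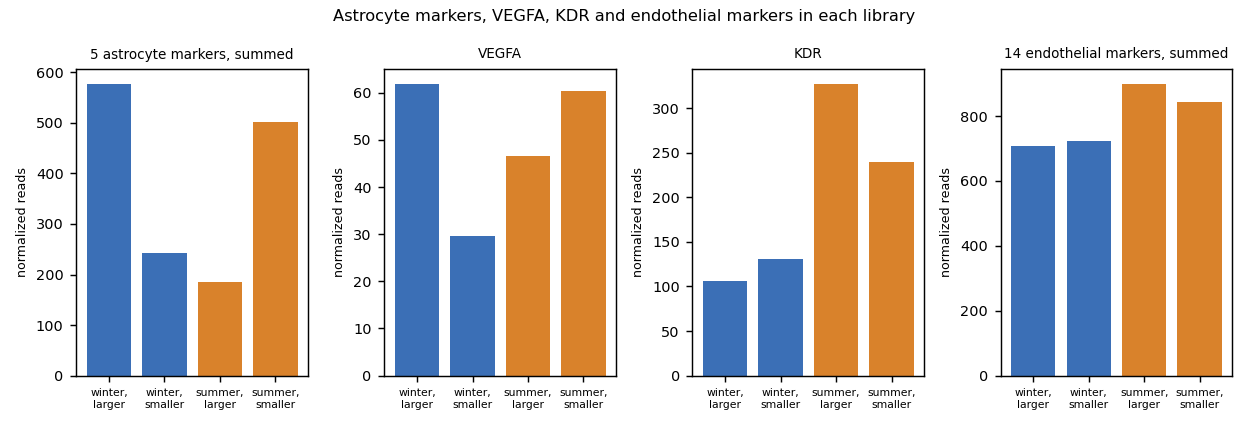
Normalized reads (y axis, bars from 0, a scale of its own in each panel) in the 4 libraries for the sum of 5 astrocyte markers, VEGFA, KDR and the sum of 14 endothelial markers. VEGFA is higher where the astrocyte markers are higher in both seasons, an order that sums not drawn here, such as those of supraoptic neurone markers, share. KDR is higher in both summer libraries. The 14 endothelial markers are those with a single solution, which leaves out TEK, lower in winter, and TIE1, higher in winter, among others.

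Other vessel cells and possible admixtures gave the following values. The 14 endothelial markers with a single solution summed to 709 and 723 normalized reads in winter against 899 and 844 in summer. Their median log2 ratio was -0.42, against -0.26 over the 24 endothelial markers with a mean of at least 10. Markers left out of the sum went both ways, such as TEK (-0.30) and TIE1 (0.68). The summed reads of 8 mural markers, of pericytes and smooth muscle, were 367 and 345 in winter against 550 and 418 in summer, whereas the median log2 ratio of the 13 mural markers with a mean of at least 10 was -0.05. The pericyte marker RGS5 was lower in winter (log2 ratio -0.83) and the pericyte receptor PDGFRB higher (0.48). The smooth muscle genes NOTCH3 (1.13) and CNN1 (1.60) were more than 2-fold higher in winter, CNN1 from 11 and 21 reads in winter against 3 and 6 in summer. Other smooth muscle genes of the list were not, with log2 ratios of -0.73 for ACTA2, whose summer libraries both lay above both winter libraries, -0.18 for TAGLN and -0.05 for MYH11. The lymphatic marker PROX1, a transcription factor, had a mean of 21.8 in winter and 15.4 in summer, and 3 lymphatic markers had a median of 0.35, whereas FLT4 was lower in winter. Medians were -0.28 for 10 microglia and macrophage markers, 0.27 for 9 oligodendrocyte markers, 0.10 for 10 astrocyte markers, 0.14 for 4 tanycyte and ependymal markers and -0.36 for 4 blood cell markers. For 9 supraoptic neurone markers it was 0.08. The extreme genes were CD163 (-0.98) and CSF1R (0.92) of macrophages and microglia, MAG (0.69) of oligodendrocytes, and VIM (-1.16) and CRYM (0.65) of tanycytes. They were AQP4 (-1.01), from 9 and 3 reads in winter against 9 and 9 in summer, and GJB6 (0.39) of astrocytes, PDPN (-0.16) of lymphatic vessels, and CD3E (-0.88) and ALAS2 (0.11) of blood. The part of these cell types in the values of the VEGF genes was not tested.

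For the pathway around the members, season differences were fitted across the 7656 symbols with edgeR's quasi-likelihood test. No symbol reached an adjusted p of 0.05 (0%), and 152 had an unadjusted p under 0.05. The exact test and DESeq2 each called 1 symbol after adjustment. Past the thresholds of the study, a 2-fold difference and an unadjusted p under 0.05, 63 symbols were higher in summer (0.823%) and 65 in winter (0.849%). Scaling to total counts made that split 46 and 122. With 1 library left out the spread came from the other season alone. Without the higher-factor or the lower-factor winter library 35 or 50 symbols passed those thresholds, and without the higher-factor or the lower-factor summer library 1109 or 1157 did. Of the genes of the 15 pathway and marker lists that could be fitted, only PDYN, the dynorphin precursor of magnocellular neurones, passed them. It was higher in summer, with 84 and 8 reads in winter against 118 and 111 in summer and a log2 ratio of -1.82.

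The intracellular genes downstream of KDR, such as phospholipase C, RAS and MAP kinases, PI3-kinase, calcineurin and endothelial nitric oxide synthase, had no common direction. Of 38 genes with a mean of at least 10, 20 had a lower and 18 a higher mean in winter, and the median log2 ratio was -0.02. The range ran from -0.92 for the cyclo-oxygenase PTGS2 to 1.00 for the calcineurin-dependent factor NFATC1. NFATC1 had 132 reads in the higher-factor winter library and 32 in the lower-factor one, against 33 and 27 in summer, so that 1 library set its ratio.

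Co-receptors, receptor partners and modulators of the ligands had a median of 0.03 over 18 genes, 8 lower and 10 higher in winter. THBS1, a matrix protein that inhibits VEGF-driven growth, was highest relative to summer, with 28 and 22 reads in winter against 8 and 4 in summer and a log2 ratio of 1.75. HSPG2, the basement membrane proteoglycan perlecan, followed with means of 405 and 181 and a log2 ratio of 1.16. The TEK agonist ANGPT1 had 26 and 23 reads in winter against 7 and 69 in summer, and its log2 ratio of -0.97 rested on the lower-factor summer library. ANGPT2, the context-dependent TEK ligand made by endothelial cells, had means of 156 and 249 and a log2 ratio of -0.68.

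Genes that VEGF induces, or that mark tip cells, had the lowest median of the pathway lists, -0.31 over 16 genes, with 11 lower and 5 higher in winter. More than 2-fold higher in summer were HEY1 (-1.21), a NOTCH target, NR4A1 (-1.52), an immediate-early nuclear receptor, SPRY1 (-1.20), a feedback inhibitor of receptor tyrosine kinases, and TFPI2 (-1.02), a protease inhibitor. The larger season mean of each of these 4 was between 10 and 40, and of 2936 symbols in that range 15.4% were more than 2-fold higher in summer and 6.47% in winter. Of these 4, both summer libraries exceeded both winter libraries only for SPRY1, with 13 and 8 reads in winter against 23 and 15 in summer. NR4A1 had 24 and 6 reads in winter against 7 and 55 in summer. KLF2, the flow-responsive endothelial factor, was more than 2-fold higher in winter, with 101 and 39 reads against 26 and 21 and a log2 ratio of 1.17. DLL4, the NOTCH ligand of tip cells, had 49 and 30 reads in winter against 74 and 24 in summer (log2 ratio -0.65), with overlap.

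Hypoxia and HIF genes, which include inducers and co-targets of VEGFA, had a median of -0.09 over 27 genes, 17 lower and 10 higher in winter. Of the 13 with a single solution, 6 had both summer libraries above both winter libraries and 0 the reverse. Over all symbols with a single solution, a set that low winter means enter more readily, the shares were 17.2% and 13.3%. The counts were 6 and 2 for 14 endothelial and 3 and 1 for 8 mural markers. Apart from HK2 and VHL the gaps were small. The higher winter values of EGLN1, P4HA1, P4HA2 and CA9 were 131, 83.5, 62.4 and 46.0 normalized reads. Their lower summer values were 139, 85.5, 65.0 and 48.8. HK2, the inducible hexokinase, had 6 and 5 reads in winter against 13 and 12 in summer (log2 ratio -1.50). VHL, which marks HIF subunits for degradation, had 42 and 14 reads in winter against 40 and 48 in summer (-1.08). The oxygen-sensitive subunits HIF1A (-0.25) and EPAS1 (0.25) had opposite signs, and the HIF target BNIP3 had the highest value of the list, 0.26. The summed normalized reads of these 13 genes were 1084 and 729 in winter against 874 and 1082 in summer. The higher sums were in the libraries that were high in VEGFA and in astrocyte markers. PFKFB3 alone had 375 and 121 normalized reads in winter against 204 and 279 in summer. Of the 13 genes, 8 were higher in that winter library and 8 in that summer library.

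The class 3 semaphorins and plexins, which share the neuropilins with VEGF, had a median of 0.09 over 10 genes (-0.50 over the 3 with a single solution), from SEMA3E (-0.71) to the receptor PLXNA1 (0.87). The 5 genes of the PDGF family, relatives of the VEGF ligands, had a median of -0.09, from PDGFD (-0.59) to PDGFA (0.89). PDGFA had 150 and 97 reads in winter against 33 and 71 in summer, and both winter libraries exceeded both summer libraries.

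**Figure D5:**
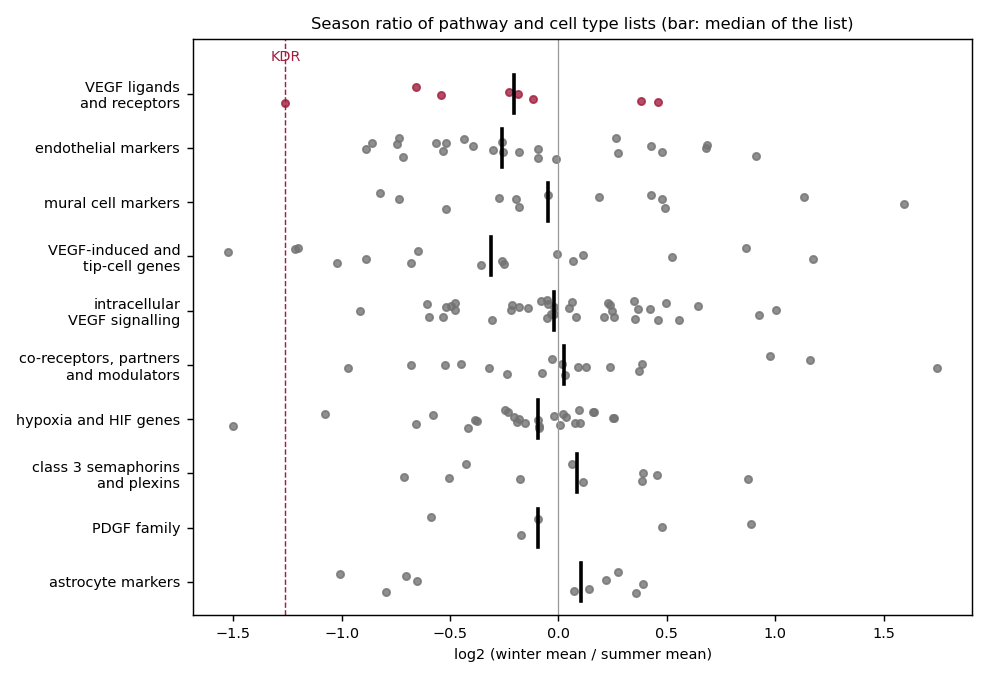
Log2 ratio of the winter mean over the summer mean (x axis) of each gene with a season mean of 10 or more (points), by list (y axis, vertical position within a row is arbitrary), with black bars at the list medians and a dashed line at KDR. KDR lies outside the range of the endothelial markers, whose lowest value is -0.89, and of the lists drawn here NR4A1 and HK2 lie beyond KDR. KDR was chosen with its season contrast known, so that nothing is read from its place.

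The symbols whose pattern was most like that of KDR were sought among 4069 symbols with a single solution and a season mean of 50 or more. The measure was the Euclidean distance between log2 profiles over the 4 libraries, each centred on its own mean. The nearest 5 were JPH1 (distance 0.13), a junctophilin of excitable cells, SULT6B1 (0.16), a sulphotransferase, OCA2 (0.21), a melanosomal transporter, PCYT1B (0.23), an enzyme of phosphatidylcholine synthesis, and RASGRP1 (0.23), an activator of RAS. JPH1 had 51 reads in each winter library and 122 and 83 in summer, with a log2 ratio of -1.30. Of the other members only VEGFA and VEGFC could enter this search, and neither was among the 5.

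In the RefSeq annotation of the mCamDro1.pat assembly, used here for names and order only, 8 of the 9 members were found by symbol. For KDR, 1 symbol with season means on each side was compared, SRD5A3 and PDGFRA. They had log2 ratios of 0.16 and -0.17, so that neither of these shared the KDR difference. Other genes may lie between a member and the symbols compared here. VEGFC lies between NEIL3 (-0.61) and SPCS3 (-0.25), both lower in winter like VEGFC itself. VEGFB lies between FKBP2 (0.79) and DNAJC4 (0.34), both higher in winter like VEGFB. The symbols compared in this way for FLT1, FLT4, VEGFA, PGF and NRP2 had ratios between -0.35 and 0.36. Whether reads of neighbouring genes were shared was not tested.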

How the data were processed

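The members and the gene lists were chosen with earlier results of these data known. TopHat (alignment to the study's own camel assembly) and HTSeq (counting) were used by the authors, in versions not given in the sources used here, and the deposited count files hold raw read counts per gene model, without gene names. They were used for depth only. In the deposited table of 18152 rows, the authors gave a signal for every symbol, that is, counts scaled by DESeq size factors and averaged by season. The table also holds a ratio, edgeR's fold change, and a p-value from edgeR, both deposited by the authors and not used here. Rows without a value (2099) and 4 rows with repeated symbols were left out.

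Each mean was written as a sum of whole reads of 2 libraries, within the rounding of the table. Of the means up to 10, 100% gave whole reads, against 0% of the same means moved at random. Means with several solutions occurred from 100.24 in winter and from 368.857 in summer, and all solutions were kept. Reads could not be tied to replicate numbers. Fold changes are ratios of season means without a pseudocount.

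Symbols with single solutions and a season mean of 10 or more were fitted with edgeR 4.0.16 in R 4.3.3 (glmQLFit, glmQLFTest, Benjamini-Hochberg adjustment), with the study's size factors and season as the only term. The common biological coefficient of variation was 0.459. The 4 members that met these conditions were among the 7656 fitted symbols and part of the counts, but their own p-values are not given. The exact test, DESeq2 1.42.0, other scalings, filters, thresholds and left-out libraries were alternatives, and some of them, such as the subset of 4004 low symbols in which every mean solves, were added after the data were seen. The read recovery and the fit were tested on simulated data. From each list, genes past a threshold and otherwise the highest and lowest ratio were named. Named with them were PECAM1, CDH5, CLDN5, TEK, TIE1, PLVAP, PDGFRB, RGS5, DLL4, HIF1A, EPAS1, ANGPT1, ANGPT2, FIGF, OXT and the vasopressin gene. HSPG2, HEY1, SPRY1, TFPI2, VHL, NOTCH3, ACTA2, TAGLN, MYH11, ESAM and MMRN2 fall outside that rule and were named after their values were seen. The same holds for SLC1A2, SLC1A3, ALDH1L1, SOX9, GFAP, S100B, GJA1, ALDOC, EGLN1, P4HA1, P4HA2, CA9 and PFKFB3. No intervals were computed, and the ranges given for single members come from left-out libraries or other processing. No sequences are printed, since no genome or sequence table was used here. One marker gene is not reported here.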

Additional observations from a re-analysis of the deposited data

How the results depend on the processing

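Over other scalings and an added count, 85 of 85 values of the members kept their sign and 81 moved by less than the spread between libraries. The 4 others were FLT1 with upper quartile factors (-0.05495, uneven winter split) and with total counts (-0.0008385 and -0.02832), and VEGFC with total counts (-0.45). KDR stayed between -1.26 and -1.18. The values with an added count could not change sign, since the same count was added to both means. NRP2 entered with 8 combinations of solutions and FLT1, VEGFB and NRP1 with 2 each, so that the 85 values are not separate. With 1 library left out, log2 ratios ranged from -1.47 to -1.02 for KDR, -1.58 to 0.60 for FLT1, -1.29 to -0.15 for FLT4, -0.85 to 0.21 for VEGFA, -2.58 to 1.37 for VEGFB, -0.61 to -0.48 for VEGFC, -0.54 to 0.39 for PGF, -1.94 to 0.58 for NRP1 and -3.32 to 1.96 for NRP2, the widest ranges from uneven splits of means with several solutions. The cause was not tested.

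Adjusted calls numbered 0 with edgeR's quasi-likelihood test, 1 with its exact test, 1 with DESeq2 and 0 to 269 with a library left out. Symbols past the 2-fold thresholds numbered 128, and 60 with DESeq2, 80 with a mean of at least 10 in both seasons, 67 in the subset where every mean solves and 35 to 1157 with a library left out, where the lone library of a season is assumed to vary like the other season's. With the filter in both seasons, 2.18% of symbols were more than 2-fold higher in summer and 1.75% in winter. Of 59 list medians 56 moved by less than the spread of the list. The others, over genes with recovered reads only, were -0.42 for endothelial, 0.15 for microglia and -0.65 for blood cell markers. On the same genes the semaphorin and plexin median turned from 0.09 to -0.50 and that of the co-receptors and modulators from 0.03 to -0.03. No paired analysis was possible because the seasons share only replicate number 2 and the recovered reads carry no numbers. With 2 libraries per season, no exact permutation test of a single gene could pass 0.05, and genes with few reads, such as PGF and FLT4, allow no statement on small differences.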
